A study of Mus musculus with 12 samples.

Results

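The RIKEN-named intergenic lncRNAs are the lincRNA transcripts whose gene symbol ends in Rik, the mark of genes first described from full-length mouse cDNA clones of the RIKEN collection. The members were the rows of the deposited lncRNA count table whose transcript type was lincRNA in GENCODE release M21 and whose gene name ended in Rik, without those on chromosomes X and Y and without 2 genes not reported here. The rule gave 1790 transcripts of 1005 genes out of 48033 rows in the table, of which 7291 were lincRNAs. GENCODE typed the parent gene as lincRNA for 1617 members, as processed transcript for 168 and as protein coding for 5. RNA sequencing was performed on the hippocampus and the cerebral cortex of 7-month-old C57BL/6J mice of the genotypes WT and 5xFAD, with 3 libraries in each of the 4 groups (hippocampus WT, hippocampus 5xFAD, cortex WT and cortex 5xFAD). 5xFAD mice, a model of Alzheimer's disease, carry human transgenes with mutations of familial disease, which are driven in neurons by elements of the mouse Thy1 gene. No treatment was given to any group, and ribosomal RNA was depleted from the total RNA. The study's methods, written for circular RNAs, add a digestion of linear RNA with RNase R that the labels of these libraries do not mention. If it was applied, the levels below are those of the RNA that withstood it, and its part in them was not tested. The labels did not say whether a hippocampus and a cortex library of the same number came from the same mouse. The comparisons asked how abundant the members were, which of them differed between the brain regions, and whether genotype or the combination of region and genotype changed them.

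Long intergenic non-coding RNAs are transcribed by RNA polymerase II between protein-coding genes, and most are spliced and polyadenylated like mRNAs but present at lower levels. Some act at their own locus on a neighbouring gene, some bind proteins or microRNAs elsewhere in the cell, and some serve as the primary transcripts from which microRNA hairpins are cut. In the brain, lincRNAs are known for levels that differ strongly between regions and cell types. Most genes that still carry a RIKEN name have no assigned function.

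The promoters of 6 genes on which the results below turn are shown first: the most abundant member, 1700020I14Rik, the gene with the isoform called for the interaction, 1500004A13Rik, and the 4 genes whose called transcripts separated the hippocampus from the cortex without overlap. Each sequence is given 5′ to 3′ along the gene, from 250 bases before to 50 bases after the start that RefSeq annotates on GRCm38.p6. Capitals mark motifs on either strand, namely TATAAA for the box of that name, GGGCGG for the Sp1 type of box, CCAAT for the box bound by NF-Y, and TGACG for the core of a cyclic AMP response element.
1700020I14Rik, chr2:119594046-119594345, plus strand: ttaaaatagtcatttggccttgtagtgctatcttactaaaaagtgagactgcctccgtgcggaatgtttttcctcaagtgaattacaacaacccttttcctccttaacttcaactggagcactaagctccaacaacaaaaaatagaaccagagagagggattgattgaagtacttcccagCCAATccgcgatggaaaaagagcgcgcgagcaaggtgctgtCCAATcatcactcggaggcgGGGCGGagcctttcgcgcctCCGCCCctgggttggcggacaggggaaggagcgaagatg
1500004A13Rik, chr3:88832498-88832797, minus strand: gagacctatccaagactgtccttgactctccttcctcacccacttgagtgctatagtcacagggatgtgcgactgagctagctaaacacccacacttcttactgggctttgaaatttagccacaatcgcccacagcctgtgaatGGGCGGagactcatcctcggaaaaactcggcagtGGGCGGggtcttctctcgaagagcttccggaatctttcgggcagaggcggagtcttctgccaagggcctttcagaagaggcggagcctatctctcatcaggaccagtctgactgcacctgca
6330420H09Rik, chr7:135853869-135854168, plus strand: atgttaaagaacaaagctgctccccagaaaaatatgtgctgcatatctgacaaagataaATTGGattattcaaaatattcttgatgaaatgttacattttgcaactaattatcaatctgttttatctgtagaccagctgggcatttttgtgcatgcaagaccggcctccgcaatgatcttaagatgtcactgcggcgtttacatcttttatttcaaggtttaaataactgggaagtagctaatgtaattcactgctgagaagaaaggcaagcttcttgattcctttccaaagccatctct
A530013C23Rik, chr2:167690927-167691226, plus strand: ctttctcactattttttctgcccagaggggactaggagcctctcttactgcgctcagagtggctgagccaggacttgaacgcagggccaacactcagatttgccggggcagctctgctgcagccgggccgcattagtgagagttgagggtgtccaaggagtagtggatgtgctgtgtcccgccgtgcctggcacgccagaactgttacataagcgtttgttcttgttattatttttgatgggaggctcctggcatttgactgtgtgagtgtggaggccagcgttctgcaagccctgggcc
A830009L08Rik, chr13:91388036-91388335, minus strand: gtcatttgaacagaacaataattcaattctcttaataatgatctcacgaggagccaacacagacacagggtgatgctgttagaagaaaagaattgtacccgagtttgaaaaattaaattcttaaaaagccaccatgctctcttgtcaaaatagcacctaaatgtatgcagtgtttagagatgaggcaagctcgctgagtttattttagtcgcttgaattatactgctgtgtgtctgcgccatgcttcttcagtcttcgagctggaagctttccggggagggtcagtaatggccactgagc
2610316D01Rik, chr3:45378211-45378510, minus strand: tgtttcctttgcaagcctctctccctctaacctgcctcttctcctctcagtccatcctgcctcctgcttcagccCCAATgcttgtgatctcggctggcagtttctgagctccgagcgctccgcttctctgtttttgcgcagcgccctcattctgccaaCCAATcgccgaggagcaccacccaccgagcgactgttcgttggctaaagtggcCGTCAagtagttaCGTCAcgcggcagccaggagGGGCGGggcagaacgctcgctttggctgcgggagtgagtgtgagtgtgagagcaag
The windows of 6330420H09Rik, A530013C23Rik and A830009L08Rik held no GGGCGG, while those of 1700020I14Rik, 1500004A13Rik and 2610316D01Rik held at least 1. The RefSeq window of 6330420H09Rik began inside the gene as GENCODE places it, so it did not cover the GENCODE start.

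Mature microRNAs encoded within member genes are shown because 2 of the 10 most abundant members, A330023F24Rik and A230057D06Rik, came from such host genes. Those of A230057D06Rik, of the miR-344 family, are not shown. The other 2 hosts below, 3110039I08Rik and 6720427I07Rik, gave none of these 10 members. The sequences are those of RefSeq, and capitals mark the seed, bases 2 to 8, which pairs with target mRNAs. A330023F24Rik holds miR-29b and miR-29c, 3110039I08Rik holds miR-100, let-7a-2 and miR-125b-1, and 6720427I07Rik holds 3 hairpins of the let-7 family.
mmu-miR-29b-3p: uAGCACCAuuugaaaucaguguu
mmu-miR-29c-3p: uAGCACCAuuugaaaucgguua
mmu-miR-100-5p: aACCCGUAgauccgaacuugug
mmu-miR-125b-5p: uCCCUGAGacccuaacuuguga
mmu-let-7a-5p: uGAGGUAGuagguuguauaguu
mmu-let-7d-5p: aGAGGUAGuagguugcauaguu
mmu-let-7f-5p: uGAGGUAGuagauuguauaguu
The pair from A330023F24Rik shared the seed AGCACCA, and the 3 from 6720427I07Rik shared the seed GAGGUAG.

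The libraries held 3517967 to 5014389 counts on the rows of the table. Before any result, 4 libraries have to be named. The libraries labelled 5xFAD 1 and 5xFAD 2 of both regions had 30468 to 46630 counts of Xist, the RNA of the inactive X chromosome of females, and 0 counts of Y-linked genes, while the other 8 libraries had 4 to 25 Xist counts and 1074 to 1661 Y-linked counts. All WT libraries were therefore Y-positive, whereas 1 male and 2 females per genotype were stated, so sex and genotype were partly confounded. The non-coding transcripts of Thy1 reached 105 to 145 CPM (counts scaled to library size) in the libraries labelled 5xFAD 1 and 2, against 30.3 to 45.9 CPM in WT and 39.1 and 36.1 CPM in the hippocampus and cortex libraries labelled 5xFAD 3. Those of Trem2, a receptor of microglia that rises around amyloid plaques, showed the same order, with 178 to 235 CPM in 5xFAD 1 and 2, 19.7 to 54.1 CPM in WT and 40.5 and 20.01 CPM in 5xFAD 3. The libraries labelled 5xFAD 3 were therefore at WT levels of both, and the region effect and the interaction are also given without them. They are the only 5xFAD libraries kept, 1 per region, where those with Xist counts are left out. Without the libraries labelled 5xFAD 3, all 5xFAD libraries have Xist counts and all WT libraries are Y-positive. Sex and genotype are then fully confounded. Markers of the regions themselves followed the labels in part. Like those of Thy1 and Trem2, the marker counts below are of non-coding transcripts of these genes. A marker with no row or no count is therefore not shown to lack mRNA. Of the hippocampus list, Zbtb20 and Tdo2 were the 2 genes tested and both were higher in the hippocampus. Prox1 was among the hippocampus markers with no row or no count. Of the cortex list, 3 of 6 tested genes (Rorb, Lamp5 and Foxp2) were higher in the cortex. Etv1, its gene with the most counts, leaned the other way without being called (0.57 ± 0.22 log2, SE, edgeR adjusted p = 0.178). Summed, the cortex list overlapped between regions, at 300 to 447 CPM in the hippocampus and 232 to 447 CPM in the cortex. Markers of adjoining tissue also moved with region. Of the choroid plexus list only Kl was tested and it was higher in the hippocampus (1.63 to 10.8 CPM for the summed list in the cortex libraries against 6.72 to 47.0 CPM in the hippocampus libraries), with Ttr and 6 others of its 8 genes absent or at 0. Of the striatum list, 3 of 4 tested genes (Drd1, Ppp1r1b and Rgs9) were higher in the cortex, at 221 to 520 CPM summed against 55.7 to 250 CPM in the hippocampus. Of 4 thalamus genes tested Lhx9 was higher in the hippocampus, and none of 5 oligodendrocyte genes and of 1 microglia gene was called. The part of adjoining tissue in the region results was not tested, and in tissue samples fewer cells of a type cannot be told apart from less RNA per cell.

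Most members were barely detected. A transcript was counted as detected in a library at 3 or more counts, a floor that covers counting error only. Of the 1790 members, 777 (43.4%) had no count in any library and 1021 were detected in none, whereas 232 (12.96%) were detected in all 12. The last share was 10.1% for the 3945 lincRNAs with a Gm name (the placeholder name for predicted mouse genes) and 44.2% for all rows. In a single library, 413 to 487 members were detected, which is 23.1% to 27.2% of them, against 19.3% to 22.4% of the Gm-named lincRNAs. No member was detected in all 6 libraries of a region and in none of the other, and of all 48033 rows 5 were so for the hippocampus and 4 for the cortex. Detection in at least 1 hippocampus and no cortex library was seen for 83 members (4.64%, against 3.34% of all rows) and the reverse for 88 (4.92%, against 3.51%), so the 2 directions were about equally frequent. Where a member reached 20 counts in some library, which 307 did, 70 had 0 counts in another library. Summed per gene, this was so for 21 of 211 genes.

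The members took 0.868% to 0.970% of the counts in the hippocampus and 0.967% to 1.08% in the cortex. Without the most abundant member the shares were 0.559% to 0.633% and 0.630% to 0.702%, and both pairs of ranges overlapped slightly. These counts were concentrated on few transcripts, with 7 members holding 50% and 142 holding 90% of them. On the scale of CPM per kilobase of spliced length, which allows different transcripts to be compared, the median of the members with any count was 0.542, against 0.321 for the Gm-named lincRNAs and 3.37 for all annotated rows. A level of at least 1 CPM per kb was reached by 400 members (22.3%) and a level of at least 10 by 85 (4.75%). Members had a median spliced length of 886 bases and 3 exons, against 778 bases and 3 exons in the Gm-named lincRNAs, and both had a median GC content of 46.8%.

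**Figure D1:**
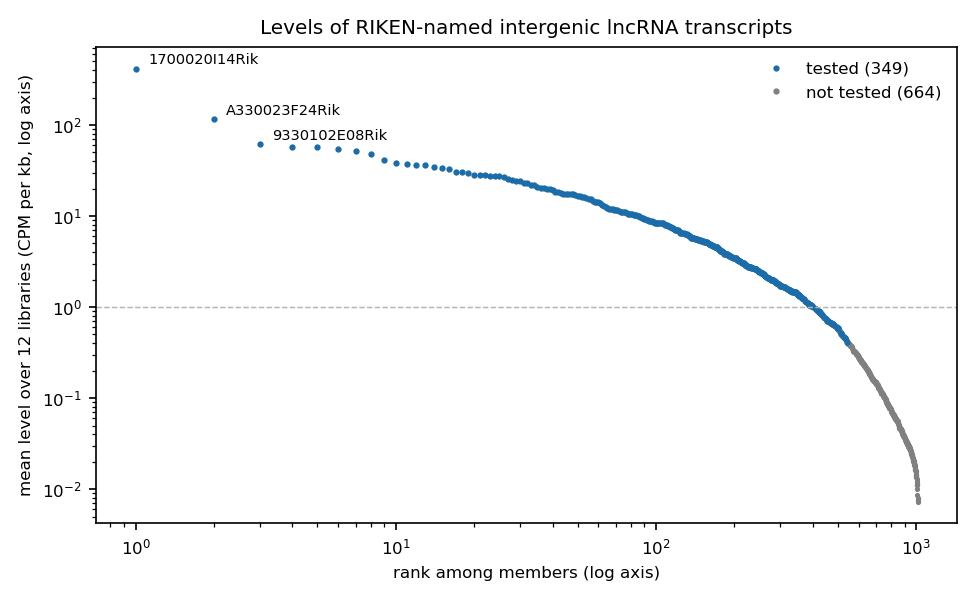
Mean level over 12 libraries (CPM per kb, log axis) of the 1013 members with any count, by rank (log axis). Blue points are the 349 members that passed the filter for testing and grey points the other 664, and the dashed line marks 1 CPM per kb, which 400 members reached. The first point, 1700020I14Rik at 415 CPM per kb, stands above A330023F24Rik at 117 and all others.

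The most abundant member was 1700020I14Rik (ENSMUST00000153581, chromosome 2, 119594303 to 119607502 on the plus strand, 3 exons), which RefSeq lists as Oip5os1 or Cyrano, a conserved RNA known for triggering the destruction of the microRNA miR-7. Its counts were 16397, 14763 and 13703 in hippocampus WT, 12226, 16194 and 11998 in hippocampus 5xFAD, 15417, 15872 and 15099 in cortex WT, and 15182, 12106 and 15401 in cortex 5xFAD. The 4 groups overlapped, and this transcript alone held 32.7% to 40.3% of the member counts of each library. Its level was 397 ± 26.3, 393 ± 53.8, 460 ± 52.2 and 412 ± 14.8 CPM per kb (SD, n = 3) in the same order, and the fitted difference between regions was -0.14 ± 0.09 (log2, SE; edgeR adjusted p = 0.547).

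A330023F24Rik (ENSMUST00000181273, chromosome 1, 195017398 to 195036929, plus strand, 8 exons) came second. Its gene is the host of the miR-29b-2 and miR-29c hairpins, which start at 195037040 and 195037547, past the end of this transcript. The transcript had 118 ± 10.9, 109 ± 19.1, 140 ± 20.5 and 99.4 ± 9.83 CPM per kb (SD, n = 3) in hippocampus WT, hippocampus 5xFAD, cortex WT and cortex 5xFAD. Cortex 5xFAD had the lowest mean, and its difference from cortex WT did not pass the test (-0.49 ± 0.16 log2, SE; edgeR adjusted p = 0.904).

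The other 8 of the 10 highest members lay between 38.4 and 61.2 CPM per kb, and their order was not resolved, since adjacent means differed by less than the largest SD within a group. They were 9330102E08Rik (61.2), 2810455O05Rik (57.9), 1500004A13Rik ENSMUST00000183707 (57.7), B230209E15Rik (53.8), 9530059O14Rik (52.0), A230057D06Rik (47.5), 1500004A13Rik ENSMUST00000185189 (41.7) and A530017D24Rik (38.4). B230209E15Rik and A230057D06Rik lie in a stretch of chromosome 7 next to the imprinted genes Ndn and Snrpn, which is described further below. None of these 10 transcripts was called for the region effect. 1810026B05Rik, which RefSeq lists as Chaserr, a regulator of its neighbour Chd2, was present at 240, 214 and 362 counts summed over its transcripts in hippocampus WT, 335, 302 and 170 in hippocampus 5xFAD, 291, 273 and 264 in cortex WT and 179, 217 and 290 in cortex 5xFAD, and its summed difference between regions was 0.04 ± 0.21 (log2, SE; edgeR adjusted p = 0.947).

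Member genes that hold microRNA hairpins on their own strand numbered 11, with 23 hairpins, and 10 of these genes were tested as sums over their transcripts. None was called for region (background 6.82% of summed genes) or for genotype (0.0529% in the hippocampus and 0.0175% in the cortex). With 10 genes tested, the absence of calls cannot be set apart from these shares. A330023F24Rik summed to 3891 to 5524 counts per library, and the hosts of miR-100, let-7a-2 and miR-125b-1 (3110039I08Rik) and of let-7d, let-7f-1 and let-7a-1 (6720427I07Rik) to 693 to 1479 and 162 to 396. The fitted region differences of these 3 hosts were -0.11 ± 0.09, -0.01 ± 0.20 and 0.23 ± 0.18 (log2, SE), with edgeR adjusted p = 0.560, 0.980 and 0.537. A430106G13Rik, the host of miR-181b-1, had 0 counts in hippocampus WT 1 and hippocampus 5xFAD 2 and 66 to 119 counts in every other library. These counts are of the long host RNA, and the mature microRNAs were not measured in these libraries.

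The region effect was taken as the mean of the hippocampus minus cortex differences in WT and in 5xFAD. Of the 1790 members, 349 passed the filter on low counts and 12 (3.44%) were called at an adjusted p under 0.05, where 2.55% of all 24632 tested transcripts were called. Of the 12, 8 were higher in the hippocampus (background in this direction 1.40%) and 4 in the cortex (1.15%). Without the libraries labelled 5xFAD 3 there were again 12 calls, of which 8 were among these 12 and 4 were other members. Without the 4 libraries with Xist counts there were 6, of which 2 were among the 12, 6330420H09Rik (edgeR adjusted p = 0.0458) and 1500004A13Rik ENSMUST00000184170 (0.0355), and 4 were other members. The median difference over the tested members was -0.10 (log2), against -0.000637 for all transcripts tested, and 61 members (17.5%) had an unadjusted p under 0.05, with a background of 14.3%. In CPM, 6 members had all 6 hippocampus libraries above all 6 cortex libraries and 6 the reverse, 1.72% each, with backgrounds of 1.60% and 1.40%. The members thus differed between regions at a rate near that of the table as a whole.

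**Figure D2:**
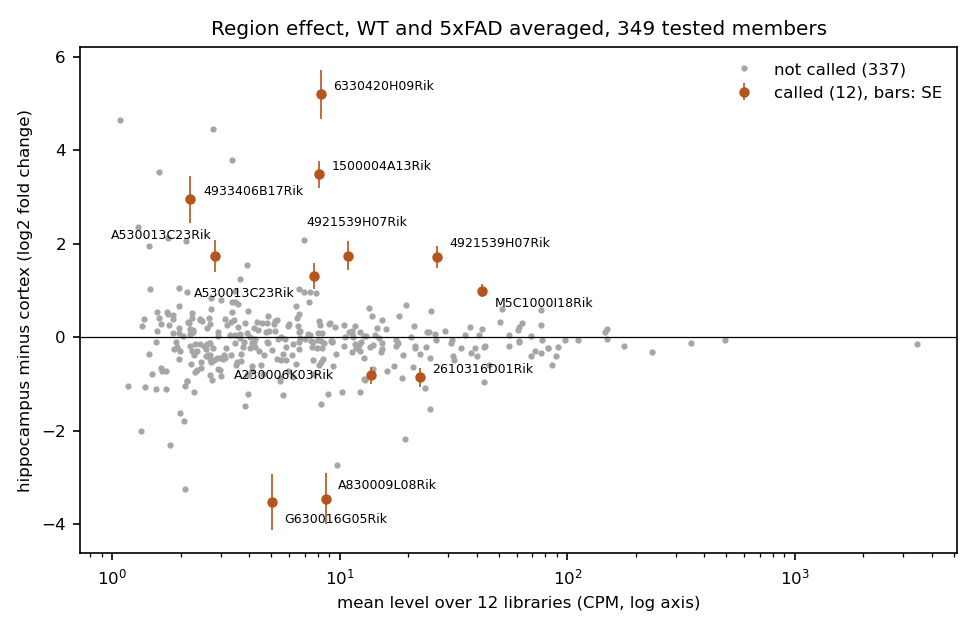
Fitted difference hippocampus minus cortex (log2 fold change, WT and 5xFAD averaged) of the 349 tested members against their mean level (CPM, log axis). Orange points with SE bars are the 12 called members, 8 above and 4 below the line at 0, and grey points the other members. All 12 called members had mean levels under 100 CPM.

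6330420H09Rik (ENSMUST00000211371, chromosome 7, 135853682 to 135855710, plus strand, 2 exons) was the clearest hippocampal member. It had 108, 84 and 93 counts in hippocampus WT and 21, 56 and 63 in hippocampus 5xFAD, against 2, 4 and 0 in cortex WT and 2, 0 and 2 in cortex 5xFAD. Every hippocampus library lay above every cortex library, most of which were under the floor of 3 counts. The fitted difference was 5.20 ± 0.52 (log2, SE; edgeR adjusted p = 0.000729), and the call held in all 20 alternatives tried. The difference was 5.35 ± 0.59 in WT (edgeR adjusted p = 0.0270) and 5.03 ± 0.76 in 5xFAD (edgeR adjusted p = 0.132). Its nearest protein-coding gene is Mki67, 137321 bases away on the opposite strand.

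Both transcripts of A530013C23Rik (chromosome 2, plus strand, from 167691177) were also higher in the hippocampus without overlap. The shorter, ENSMUST00000130679, had 61, 64 and 46 counts in hippocampus WT and 35, 46 and 36 in hippocampus 5xFAD, against 33, 20 and 12 in cortex WT and 17, 20 and 8 in cortex 5xFAD. Its ratio of means was 2.46 and its fitted difference 1.30 ± 0.28 (log2, SE; edgeR adjusted p = 0.0372). The longer, ENSMUST00000141923, had 14 to 24 counts in the hippocampus and 2 to 11 in the cortex, with a difference of 1.74 ± 0.35 (edgeR adjusted p = 0.0260). The 2 transcripts share reads, so they are not independent of each other. Both calls were near the threshold: leaving out 1 library at a time ended the call of ENSMUST00000130679 in 10 of 12 cases and of ENSMUST00000141923 in 7 of 12, and both were lost without the libraries labelled 5xFAD 3 (edgeR adjusted p = 0.0674 and 0.0543). The gene starts 1355 bases from that of Tmem189, in the opposite direction, and lies 759 bases from Cebpb, which encodes a transcription factor.

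The remaining calls are named after their values were seen. M5C1000I18Rik (ENSMUST00000196844, chromosome 9, 67758713 to 67760208) was higher in the hippocampus within each genotype, with 331, 414 and 287 counts in hippocampus WT and 163, 170 and 115 in cortex WT, and with 161, 186 and 119 in hippocampus 5xFAD and 93, 74 and 77 in cortex 5xFAD. Hippocampus 5xFAD thus overlapped cortex WT, and the difference between regions was 0.999 ± 0.14 (log2, SE; edgeR adjusted p = 0.0040). It overlaps C2cd4b on the opposite strand, and reads of the pair cannot be told apart unless strand was used in counting, which was not stated.

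In WT, both transcripts of 4921539H07Rik (chromosome 3) were higher in the hippocampus without overlap. In 5xFAD this held for ENSMUST00000197200 only. ENSMUST00000200072 overlapped there, with 3.98 to 12.9 CPM in hippocampus 5xFAD and 3.27 to 5.17 CPM in cortex 5xFAD. ENSMUST00000197200 had 263, 314 and 210 counts in hippocampus WT, 94, 94 and 117 in hippocampus 5xFAD, 101, 42 and 50 in cortex WT and 36, 39 and 27 in cortex 5xFAD. ENSMUST00000200072 had 127, 142 and 92, 16, 34 and 52, 24, 12 and 17, and 23, 12 and 20 in the same order. The WT hippocampus was the highest group of each and did not overlap the others. The region differences were 1.72 ± 0.24 for ENSMUST00000197200 and 1.75 ± 0.30 for ENSMUST00000200072 (log2, SE, edgeR adjusted p = 0.00414 and 0.0120). 4933406B17Rik (ENSMUST00000212602, chromosome 8) was lower in level, with 21, 24 and 23 counts in hippocampus WT, 4, 13 and 18 in hippocampus 5xFAD and at most 4 in any cortex library (2.95 ± 0.50 log2, SE; edgeR adjusted p = 0.0116).

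On the cortical side, A830009L08Rik (ENSMUST00000181054, chromosome 13, 91368990 to 91388085, minus strand, 3 exons) showed the largest difference without overlap. It had 112, 58 and 55 counts in cortex WT and 65, 67 and 24 in cortex 5xFAD, against 7, 0 and 2 in hippocampus WT and 11, 6 and 17 in hippocampus 5xFAD. The fitted difference was -3.47 ± 0.55 (log2, SE; edgeR adjusted p = 0.00743), with -4.75 ± 0.81 in WT and -2.19 ± 0.58 in 5xFAD. Within either genotype alone A830009L08Rik was not called. Its nearest protein-coding gene is Ssbp2, 72198 bases away. Without the 4 libraries with Xist counts, 1 5xFAD library per region remained, so effect sizes alone are given here. The difference was then -2.57 (log2) for A830009L08Rik. For A230006K03Rik it was -0.43, against -0.82 with all libraries, and for 4933406B17Rik 3.02, against 2.95. The calls of these members were not kept in that setting.

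2610316D01Rik (ENSMUST00000181047, chromosome 3, 45280437 to 45378260, minus strand, 9 exons) is transcribed away from Pcdh10, which encodes a neuronal protocadherin, from a start 138 bases from its own. It had 130, 159 and 71 counts in cortex WT and 137, 123 and 102 in cortex 5xFAD, against 78, 70 and 86 in hippocampus WT and 69, 72 and 41 in hippocampus 5xFAD. In CPM the regions did not overlap, and the difference was -0.86 ± 0.19 (log2, SE; edgeR adjusted p = 0.0459). This call was near the threshold and was lost in 15 of 21 alternatives, among them without the libraries labelled 5xFAD 3 (edgeR adjusted p = 0.0576). A230006K03Rik (ENSMUST00000107533, chromosome 7) was the last member inside the threshold, with 21 to 60 counts in the hippocampus and 51 to 91 in the cortex (-0.82 ± 0.19 log2; edgeR adjusted p = 0.0477), and its call was also lost in 15 of 21 alternatives. E330013P04Rik (ENSMUST00000190698) was the first outside it, with 6 to 21 counts in the hippocampus and 0 to 4 in the cortex (2.12 ± 0.49 log2; edgeR adjusted p = 0.0523).

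**Figure D3:**
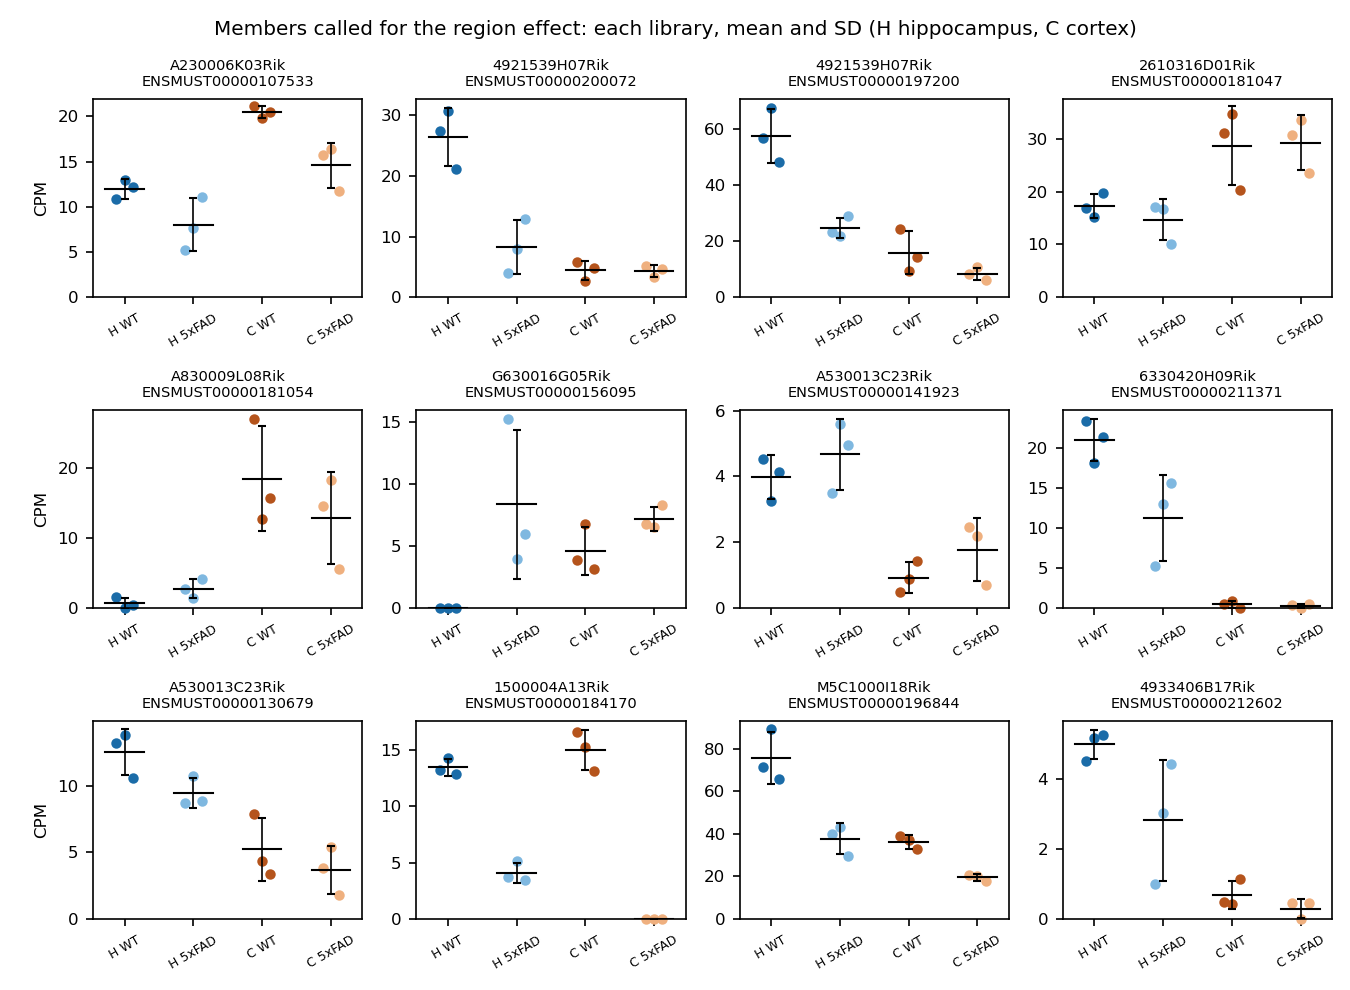
CPM in each of the 12 libraries for the 12 members called for the region effect (points, 3 per group), with the group mean (line) and SD (bar) for hippocampus (H) and cortex (C) of WT and 5xFAD mice. 6330420H09Rik and A830009L08Rik separate the regions in both genotypes, whereas 1500004A13Rik is at 0 only in cortex 5xFAD and G630016G05Rik only in hippocampus WT.

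For 2 of the 12 calls, 1 group alone was at 0 and carried the averaged difference. G630016G05Rik (ENSMUST00000156095, chromosome 2, 116067968 to 116085910, divergent from the homeobox gene Meis2) had 0, 0 and 0 counts in hippocampus WT but 61, 17 and 24 in hippocampus 5xFAD, 16, 31 and 11 in cortex WT and 30, 24 and 36 in cortex 5xFAD. With hippocampus WT set at the floor of 3 counts per library, cortex WT was at least 6.92-fold higher and hippocampus 5xFAD at least 12.6-fold higher. In 5xFAD the regions did not separate (0.21 ± 0.52 log2, SE; edgeR adjusted p = 0.930), and the interaction did not pass (edgeR adjusted p = 0.489). The averaged call was lost without the libraries labelled 5xFAD 3 (edgeR adjusted p = 0.0739), without those with Xist counts (0.137) and as a gene sum (-1.19 ± 0.38 log2, SE; 0.0901). 1500004A13Rik ENSMUST00000184170 is the other and is described with its gene. For both, the fitted averages (-3.54 ± 0.60 and 3.49 ± 0.28 log2, SE) depend on the prior count given to a group at 0 and are not sizes of a regional difference.

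Summing the counts of all transcripts of a gene left 240 member genes tested, of which 18 (7.50%) were called, with a background of 6.82%. Of these 18, 11 were higher in the hippocampus and 7 in the cortex, for which no background by direction is given. Separation of the regions without overlap, seen for 11 of the 18, was counted among called genes only. It has no background and adds nothing to the calls. Of the 10 genes with a called transcript, 8 were also called as a sum. The 10 genes called as a sum alone, named after their values were seen, included E330013P04Rik (26 to 39 counts in hippocampus WT and 10 to 34 in hippocampus 5xFAD, against 2 to 9 in the cortex, 2.58 ± 0.39 log2) and, higher in the cortex, 5930412G12Rik (59 to 121 counts against 32 to 51, -1.19 ± 0.21 log2). Their edgeR adjusted p-values were 0.0022 and 0.0054. 5930412G12Rik is listed by RefSeq as Fzd10os and starts 151 bases from Fzd10, a Wnt receptor gene, on the opposite strand. The remaining 8 were 1700047F07Rik, 5330416C01Rik and 6430584L05Rik, higher in the cortex, and 4930578M01Rik, 4933412O06Rik, C530044C16Rik, 5930430L01Rik and B930018H19Rik, higher in the hippocampus, with differences of 0.48 to 3.07 in size on the log2 scale.

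The region effect was then taken within each genotype, in which the fits share no library. In WT, 3 of 289 tested members were called (1.04%, background 0.986%), namely 6330420H09Rik, 4933406B17Rik (2.84 ± 0.42 log2, SE; edgeR adjusted p = 0.0431) and 4921539H07Rik ENSMUST00000200072 (2.56 ± 0.34; edgeR adjusted p = 0.0346), each higher in the hippocampus. Summed per gene, 9 of 208 were called in WT (4.33%, background 3.50%) and 0 of 208 in 5xFAD (background 0.193%). In 5xFAD, edgeR called 0 of 287 transcripts (background 0.0182%), with 25 at an unadjusted p under 0.05 (8.71%, background 9.38%) and 4 called by DESeq2 (background 1.67%). With edgeR, 0 of 297 were called without the libraries labelled 5xFAD 3. Of the 261 members tested in both, 157 (60.2%) had the same sign, against 56.7% of all transcripts. Of the 28 members with an unadjusted p under 0.05 in WT, 24 (85.7%) had the same sign in 5xFAD, against 76.0% of all such transcripts. Across the 261 members, Pearson's r between the differences was 0.28 and Spearman's rho 0.23, given as a description because members of the same gene share reads and all share their libraries.

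**Figure D4:**
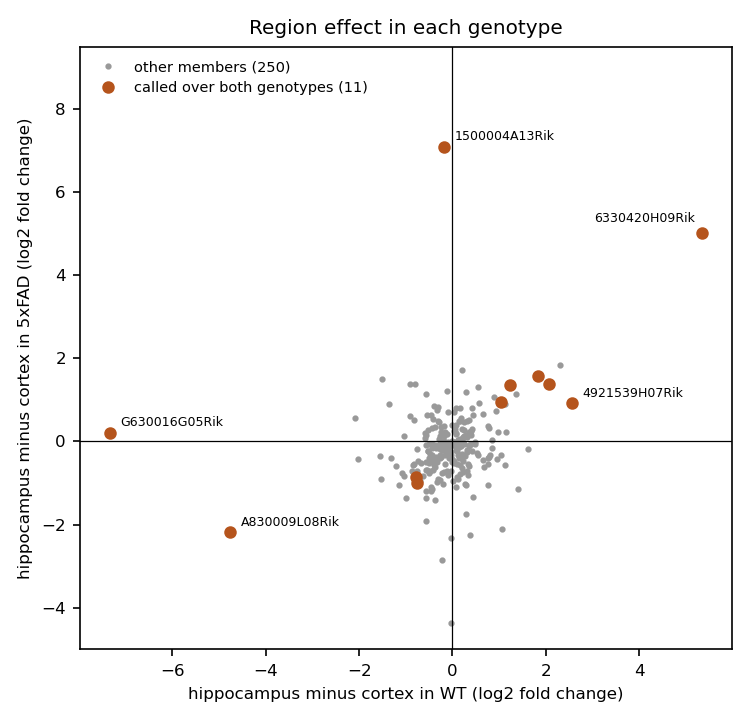
Hippocampus minus cortex (log2 fold change) in WT (x axis) and in 5xFAD (y axis) for the 261 members tested in both. Orange points are 11 of the 12 members called over both genotypes, since 4933406B17Rik was not tested in 5xFAD, and grey points the other 250. 6330420H09Rik and A830009L08Rik lie on the same side in both genotypes, and 1500004A13Rik and G630016G05Rik lie near 0 in 1 of them, where values beyond 7 depend on the prior count of a group at 0.

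Between genotypes, edgeR called 0 of 294 tested members in the hippocampus (background 0.0183%) and 0 of 282 in the cortex (0.0545%). At an unadjusted p under 0.05 there were 27 (9.18%, background 7.58%) and 22 (7.80%, background 5.34%), and DESeq2 called 3 in each region (backgrounds 0.583% and 0.465%). Leaving out the library labelled 5xFAD 3 of the region gave 0 calls in each, in a setting where sex and genotype were fully confounded. Summed per gene, edgeR called 0 of 211 in the hippocampus (background 0.0529%) and 0 of 207 in the cortex (background 0.0175%). At an unadjusted p under 0.05 there were 17 (8.06%) and 14 (6.76%) summed genes. The share of all summed genes at that threshold is not given, so these counts cannot be read against a background. In CPM and without overlap of the 3 libraries, 9 members were lower in 5xFAD than in WT in both regions (2.58%, background 0.755%) and 3 were higher in both (0.860%, background 0.532%). Genotype was partly confounded with sex, and the part of sex in these shares was not tested. The separation without overlap includes the libraries labelled 5xFAD 3, which were Y-positive like all WT libraries.

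Among the 9 lower members, 3 were transcripts of 1500004A13Rik and 1 was M5C1000I18Rik, whose counts are given above and whose differences were -0.99 ± 0.24 in the hippocampus and -0.89 ± 0.17 in the cortex (log2, SE; edgeR adjusted p = 0.537 and 0.508). 2810455O05Rik had 459 to 489 counts in hippocampus WT and 327 to 374 in hippocampus 5xFAD, and 391 to 514 in cortex WT and 346 to 393 in cortex 5xFAD, and its differences were -0.26 ± 0.18 and -0.33 ± 0.17 (edgeR adjusted p = 0.736 and 0.912). Of the 3 higher members, 9330175E14Rik had 18, 17 and 6 counts in hippocampus 5xFAD and 30, 21 and 6 in cortex 5xFAD, against 0 to 4 in WT, with the libraries labelled 5xFAD 3 the lowest of their group. 4933406I18Rik had 118 to 184 counts in hippocampus 5xFAD against 108 to 119 in hippocampus WT, and separated the genotypes in CPM.

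1500004A13Rik (chromosome 3, minus strand) had 9 transcripts in the table, 8 of them members, which start between positions 88832368 and 88832547 and overlap each other; the other is a retained intron. The transcript with the most counts, ENSMUST00000183707, had 2087, 2020 and 1701 counts in hippocampus WT, 923, 980 and 1120 in hippocampus 5xFAD, 1842, 1963 and 1659 in cortex WT and 1237, 1095 and 1140 in cortex 5xFAD. All 5xFAD libraries, including those labelled 5xFAD 3, lay below all WT libraries of their region. The differences between genotypes were -0.79 ± 0.18 in the hippocampus and -0.68 ± 0.13 in the cortex (log2, SE; edgeR adjusted p = 0.517 and 0.483). Summed over the 9 transcripts, they were -0.64 ± 0.15 and -0.54 ± 0.11 (edgeR adjusted p = 0.464 and 0.521).

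The interaction, in which the genotype difference in the cortex is taken from that in the hippocampus, was called for 1 of 349 members (0.287%, background 0.00812%), 1500004A13Rik ENSMUST00000184170 (chromosome 3, 88824482 to 88832458, 3 exons). It had 61, 66 and 56 counts in hippocampus WT, 15, 22 and 14 in hippocampus 5xFAD, 69, 70 and 46 in cortex WT and 0, 0 and 0 in cortex 5xFAD. The WT groups were alike (-0.18 ± 0.18 log2, SE, between regions), 5xFAD was lower in both regions, and cortex 5xFAD alone was at 0. With cortex 5xFAD set at the floor of 3 counts per library, cortex WT was at least 20.6-fold higher and hippocampus 5xFAD at least 5.65-fold higher. The interaction had an edgeR adjusted p of 0.0127, and 0.0168 without the libraries labelled 5xFAD 3, and it was lost without hippocampus WT 3 (0.0618), without cortex WT 2 (0.0566) and without the 4 libraries with Xist counts (0.0570). At an unadjusted p under 0.05 there were 24 members (6.88%, background 6.89%). A second isoform, ENSMUST00000184958, was at 0 in hippocampus 5xFAD 1 and in cortex 5xFAD 1 and 2 and had 12 counts in cortex 5xFAD 3, while it had 18 to 32 in cortex WT. The gene sum showed no such pattern, with 1861 to 2304 counts in cortex 5xFAD and an interaction of -0.14 ± 0.16 (log2, SE; edgeR adjusted p = 0.899). The isoforms overlap, and how reads were divided among them is not given in the sources used here, so the value belongs to the row and not to the gene.

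**Figure D5:**
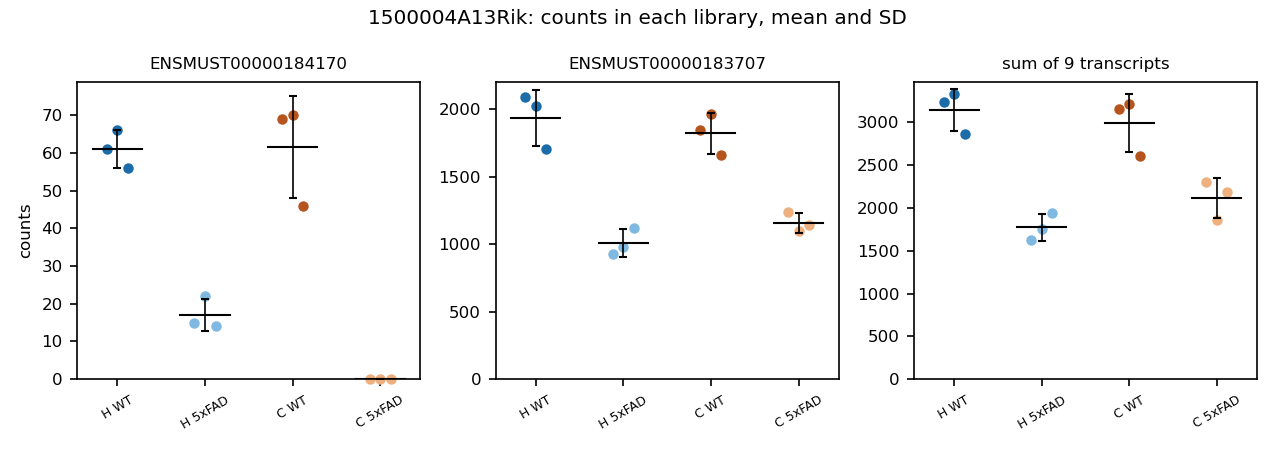
Counts in each library (points, 3 per group) with mean (line) and SD (bar) for 1500004A13Rik ENSMUST00000184170, for ENSMUST00000183707 and for the sum of 9 transcripts, in hippocampus (H) and cortex (C) of WT and 5xFAD mice. The first is at 0 counts in cortex 5xFAD, while the sum there is 1861 to 2304.

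Of the 1005 member genes, 113 (11.2%) were divergent, with a start on the opposite strand within 2000 bases of that of a protein-coding gene, against 5.34% of 3109 Gm-named lincRNA genes. The median gap to the nearest protein-coding gene was 28706 bases for member genes and 34148 bases for the Gm-named genes. For 121 tested member genes, non-coding transcripts of the nearest protein-coding gene were also tested, and the region differences had the same sign in 54 (44.6%). For 4 genes called as a sum this could be read, the sign was the same in 1, and the neighbour was called in 0 of them. 10 members of 5 genes, among them A230057D06Rik and B230209E15Rik, lie on chromosome 7 between 61127996 and 63444529, a stretch that includes the imprinted gene Ndn. Of its 9 tested members, 8 had lower values in the hippocampus than in the cortex, from -0.82 to -0.18 (log2), and 1 of them, A230006K03Rik, was called. Values higher in the hippocampus were seen for 150 of all 349 tested members and 12299 of all 24632 tested transcripts. These 9 are transcripts of at most 5 genes, and members of the same gene share reads. As a sum, B230209E15Rik had a difference of -0.60 ± 0.24 (log2, SE; edgeR adjusted p = 0.181).

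A promoter in RefSeq was found for 646 of the 1005 member genes, 4 of them under a newer symbol. GGGCGG was present on either strand in 18.1% of these 300-base windows, in 12.7% of those of Gm-named lincRNA genes and in 35.7% of all 32851 RefSeq promoters. Among the member genes the share was 42.0% for the 162 that were tested and 10.1% for the 484 that were not. CpG dinucleotides followed the same order, with a median of 9.5 in the tested and 4 in the untested member genes and 7 over all promoters. TATAAA stood in 14.1% of member promoters (13.6% of all), CCAAT in 41.2% (37.4%), TGACG in 16.9% (20.8%) and the E-box CANNTG, which fits many sequences by its short length, in 77.9% (72.3%). Of the genes called as a sum, 9 higher in the hippocampus and 6 higher in the cortex had a promoter, and GGGCGG was found in 0 of the former and in 16.7% of the latter, counts too small to compare.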

How the data were processed

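RNA of 12 libraries was sequenced. The study's methods describe 3 mice per genotype and RNA of the hippocampus, while the cortex libraries are known from their labels only. The authors deposited 1 table of whole-number read counts per lncRNA transcript for all libraries, without normalization. Per the labels, ribosomal RNA was depleted and the kit kept strand; the submitters' processing notes name Trimmomatic 0.36 and edgeR, while the aligner, the counter and its use of strand, and the genome build are not given in the sources used here. The deposited counts came to 3517967 to 5014389 per library, and intervals and floors cover counting error only.

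Transcripts were matched by Ensembl identifier to GENCODE M21 (GRCm38), for 45372 of 45597 Ensembl rows. Another 2436 rows were assembled transcripts. The members and lists were chosen with earlier results of these data known, and 2 genes are not reported here. All tests were fitted on the whole table with edgeR 4.0.16 (filterByExpr, TMM, quasi-likelihood test, R 4.3.3) and p-values were adjusted by Benjamini-Hochberg over every transcript tested, with a threshold of 0.05. The region effect used all 12 libraries, with WT and 5xFAD averaged; the region effect in WT or in 5xFAD and the genotype effect in each region used 6 libraries. Levels were compared between transcripts as TMM-scaled CPM per kb of spliced length. Transcripts named by rule were the 10 with the highest level, called ones that separated the regions or were nearest the threshold, those called for the interaction, and 1500004A13Rik, A330023F24Rik and 1810026B05Rik. Alternatives were DESeq2 1.42.0, its size factors, other filters, sums per gene, a replicate block, sex as a term and leaving out libraries; those without the libraries with Xist counts, without the libraries labelled 5xFAD 3 and with sums and block together were chosen after seeing the data. The scripts were tested on simulated counts. Columns of results by the authors were not used.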

Additional observations from a re-analysis of the deposited data

Results flagged for a closer look

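The difference between 5xFAD and WT was not the same in the hippocampus and the cortex for 1500004A13Rik ENSMUST00000184170, by the interaction term of edgeR (adjusted p = 0.0127). Its 3 cortex 5xFAD libraries were at 0 counts, while hippocampus 5xFAD held 15, 22 and 14. The sum over the 9 transcripts of the gene did not show the difference.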

How the results depend on the processing

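For the region effect, with 12 members called, DESeq2 called 30, among them all 12, the replicate block gave 3, all among the 12, and leaving out the libraries with Xist counts gave 6, of which 2 were among the 12. Leaving out 1 library at a time gave 8 to 16. In WT the 3 calls became 11 with DESeq2, 9 summed per gene, 1 with no filter and 0 with the replicate block, and 0 to 1 without 1 library. In 5xFAD, DESeq2 called 4, and without 1 library edgeR called 0. For genotype, DESeq2 called 3 in each region and sex as a term gave 1 in the cortex, while leaving out 1 library gave 0. For the interaction, with 1 call, DESeq2 gave 3, among them that call, leaving out the libraries with Xist counts gave 2 other members, and there were 0 with at least 10 counts in every library, with the replicate block or summed per gene; without 1 library it ranged from 0 (hippocampus WT 3 or cortex WT 2) to 3 (hippocampus 5xFAD 1). For 1500004A13Rik ENSMUST00000184170 the direction turned when the gene was summed, with -0.15 for region, -0.16 with the replicate block added and -0.14 for the interaction (log2). Of the 10 most abundant members, 5 remained when levels were summed per gene. The cause of these changes was not tested. For most of these settings the share of all transcripts called is not given. The member counts under them therefore cannot be read against a background. Whether the numbers pair the samples was not settled. After removing group means, same-numbered hippocampus and cortex libraries of a genotype correlated at 0.012 to 0.137. Those with different numbers correlated at -0.107 to 0.0575. The replicate block therefore rests on an assumed pairing. Low counts limit the calls, as 349 of 1790 members could be tested.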
